A study of Rattus norvegicus with 30 samples.

Results

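The 10 genes described here, Arntl, Clock, Npas2, Per1, Per2, Per3, Nr1d1, Nr1d2, Dbp and Tef, belong to the circadian clock and were taken by symbol from the normalized tables of 8, 21 and 78 weeks. Each table held 13 rows under these 10 names, since Arntl, Npas2 and Per3 had 2 rows each, out of 14005, 14134 and 13607 gene names at the 3 ages and 14531 names in all. Expression was measured in the whole heart of each of 30 F344 (Fischer) rats, an inbred strain, kept under equal daily spans of light and dark. Each age held 5 females and 5 males, and rats of 8 weeks are called young, those of 21 weeks adult and those of 78 weeks old. Each rat had its own one-color Agilent array of 45018 spots. No rat carried a transgene or received a treatment, and the time of day at which the hearts were taken is not given in the sources used here. The question asked of these genes was whether the activators of the clock and the genes they drive moved in opposite directions between hearts, between the sexes and between the ages.

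The clock of mammalian cells is a loop of transcription and translation that runs once a day in nearly every tissue, the heart included. The activator Arntl (also called Bmal1) pairs with Clock or its close relative Npas2, and the pair binds E-box sequences and switches on Per1, Per2, Per3, Nr1d1, Nr1d2, Dbp and Tef. The Per proteins, with the Cry proteins, inhibit that pair. Nr1d1 and Nr1d2 (also called Rev-erb alpha and beta) repress Arntl and Npas2 through ROR elements, so that transcripts of the activators peak when those of the repressors are low. Dbp and Tef are outputs of the loop, factors that bind the D-box of other genes, among them the Per genes.

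The promoters of these genes carry some of those letters. RefSeq (build GRCr8) gave 12 windows of 250 bases directly upstream of a transcription start, with at least 1 window for each of the 10 genes. They were searched on both strands for the E-box CACGTG, its variant CACGTT, the D-box TTATGTAA or TTACGTAA, and the ROR element TAGGTCA or TGGGTCA. No 2 matches in the windows of these genes overlapped. Of 33469 such windows of all rat genes, 5.59% held the E-box, 4.07% the variant, 0.932% a D-box and 5.62% a ROR element. Among the 12 windows, 5 held at least 1 of these strings, and they are shown here because they cover 1 gene of each role, the activator, repressors and an output. Sequences run 5′ to 3′ on the strand of the gene, and capitals mark the matches.

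Arntl, chr1:176766078-176766327, plus strand, with a ROR element 16 bases before the start: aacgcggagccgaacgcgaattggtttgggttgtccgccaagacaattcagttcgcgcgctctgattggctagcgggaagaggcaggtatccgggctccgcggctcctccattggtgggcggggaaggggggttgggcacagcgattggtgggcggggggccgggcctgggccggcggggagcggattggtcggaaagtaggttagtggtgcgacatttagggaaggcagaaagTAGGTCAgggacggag
Per2, chr9:99496994-99497243, minus strand, with a D-box 192 and an E-box variant 62 bases before the start: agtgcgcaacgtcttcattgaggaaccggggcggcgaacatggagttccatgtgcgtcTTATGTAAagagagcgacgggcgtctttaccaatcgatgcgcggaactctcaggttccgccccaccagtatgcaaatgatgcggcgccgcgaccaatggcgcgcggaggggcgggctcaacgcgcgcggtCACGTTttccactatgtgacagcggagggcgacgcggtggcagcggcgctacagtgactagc
Nr1d1, first window, chr10:84231813-84232062, minus strand, with the variant E-box read on the opposite strand 174 bases before the start: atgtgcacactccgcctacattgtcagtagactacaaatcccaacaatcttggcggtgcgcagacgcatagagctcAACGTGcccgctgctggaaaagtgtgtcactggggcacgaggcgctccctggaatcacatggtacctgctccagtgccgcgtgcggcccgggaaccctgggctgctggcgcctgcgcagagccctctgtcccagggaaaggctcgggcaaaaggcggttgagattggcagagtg
Nr1d1, second window, chr10:84229455-84229704, minus strand, with an E-box 191 bases before the start: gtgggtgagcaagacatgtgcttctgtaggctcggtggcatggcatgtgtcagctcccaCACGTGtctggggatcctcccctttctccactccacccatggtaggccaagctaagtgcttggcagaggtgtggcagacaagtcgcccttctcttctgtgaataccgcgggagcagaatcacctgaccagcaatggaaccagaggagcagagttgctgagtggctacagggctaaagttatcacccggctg
Tef, chr7:115206577-115206826, plus strand, with an E-box 198 bases before the start: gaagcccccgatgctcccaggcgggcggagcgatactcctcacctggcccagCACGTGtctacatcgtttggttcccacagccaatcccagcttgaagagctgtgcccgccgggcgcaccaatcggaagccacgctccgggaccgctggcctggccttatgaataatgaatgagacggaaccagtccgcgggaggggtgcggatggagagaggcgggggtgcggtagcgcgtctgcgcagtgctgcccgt

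The windows of Clock, Npas2, Per1, Per3, Nr1d2 and Dbp held none of these letters, which says nothing about sites elsewhere. No binding was measured in these hearts.

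Some facts of the arrays touch the clock genes. Between 17182 and 24290 spots per array were well above background, with the lowest number at 21 weeks, and the number of rats limits the precision. At 78 weeks the array labeled female replicate 2 showed the male level of Ddx3y and Eif2s3y, which are Y-linked, and the array labeled male replicate 3 showed the female level. Both lay on the same slide. Labels were kept as given, and results at 78 weeks are also given without these 2 contradicted arrays. Defining markers of cardiomyocytes (Myh6, Tnnt2, Tnni3, Actc1 and Ryr2) were well above background on all 30 arrays, and 3 of 4 leukocyte markers (Ptprc, Cd68 and Csf1r) were seen on 25 to 30 arrays, so the RNA came from a mixture of cells. In such tissue, fewer cells of a type cannot be told apart from less RNA per cell.

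Where a gene had several rows, the row well above background on the most arrays was used for its level. That row was well above background on all 30 arrays for Arntl, Npas2, Per2, Nr1d1, Dbp and Tef, on 29 for Per1 and on 23 for Nr1d2. For Per3 it was so on 8 arrays, 7 of them at 78 weeks, and for Clock on 5, so the levels of these 2 genes are close to background. The size of a difference between ages is given for Clock or Per3 only where its sign changed with the processing. The second rows were well above background on 0 arrays for Arntl, 0 for Per3 and 11 for Npas2. Values called table values are the normalized ones on a linear scale, in which 1 is the 75th percentile of the array. Values called levels are on a log2 scale and come from the scanner files, as the processed signal of a probe relative to its array's 75th percentile over all probes, a scale that lies higher than the log2 table values.

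**Figure D1:**
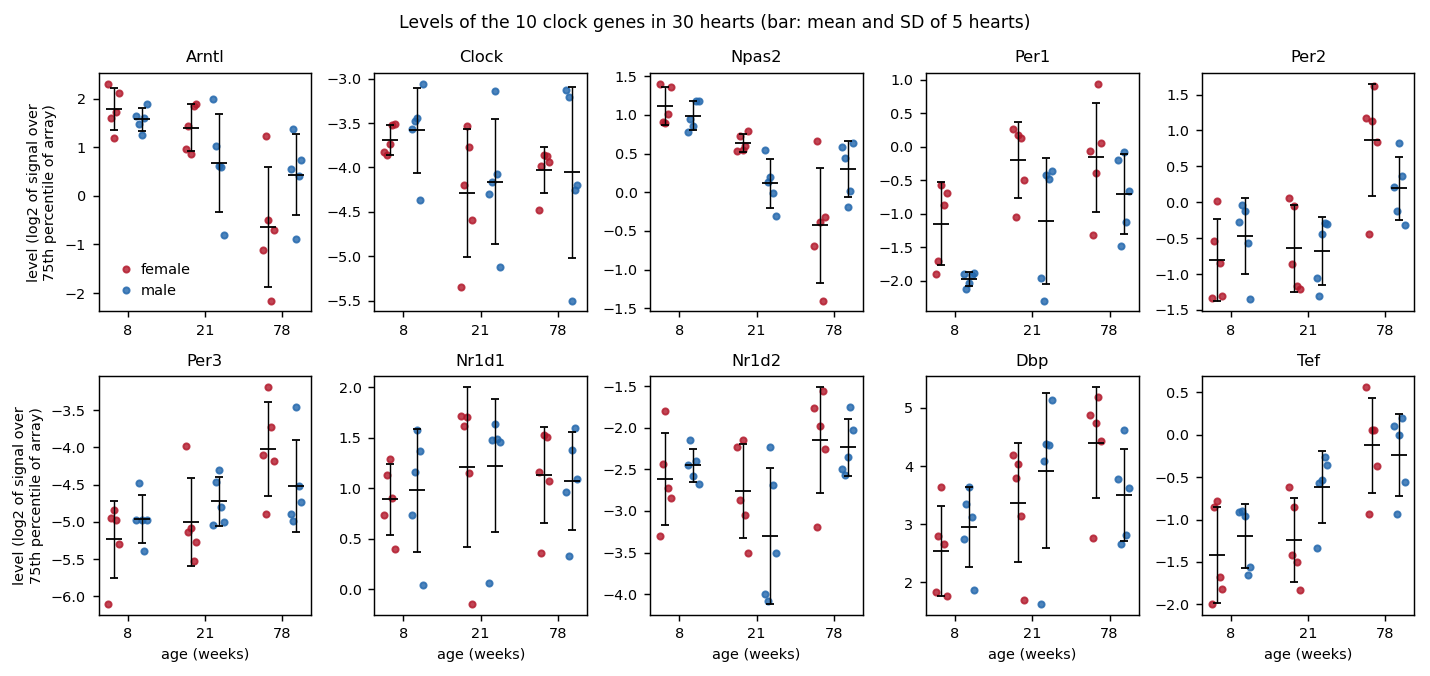
Level of each of the 10 clock genes (vertical axis, log2 of signal relative to each array's 75th percentile) in 30 hearts at 8, 21 and 78 weeks (horizontal axis). Points are single hearts, red for females and blue for males, and the bar gives the mean and SD of 5 hearts. Arntl and Npas2 have their lowest hearts at 78 weeks, where Per2 and Tef have their highest.

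Within groups of rats of the same labeled sex and age, expression of the clock genes varied more between hearts than that of most genes. The standard deviation of the level between hearts of the same group, pooled over the 6 groups, was 0.952 for Dbp, 0.784 for Arntl, 0.661 for Per1, 0.578 for Nr1d1, 0.577 for Per2, 0.556 for Nr1d2, 0.488 for Tef and 0.386 for Npas2, all on the log2 scale. It was 0.615 for Clock and 0.517 for Per3, whose signals were near background. The median over 9740 rows well above background on all 30 arrays was 0.209, and 5% of those rows lay above 0.394. Of the 10 clock genes, 9 lay above that value and Npas2 just under it, at the percentile 94.6. Among the 9, Clock, Per3, Nr1d2 and Per1 were not well above background on all 30 arrays, so they were compared with an unlike set. Arntl, Per2, Nr1d1, Dbp and Tef were like those rows in this respect. With the normexp background correction, this count of 9 became 5. The 2 contradicted arrays are part of these SDs, and the pooled SD was not computed without them. At 78 weeks the SD of the log2 table value of Arntl was 1.24 in hearts labeled female and 0.83 in those labeled male. Without these arrays it was 0.75 and 0.44. The SD was larger without them for Nr1d1, Nr1d2 and Tef in males and for Clock in females.

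In 8-week hearts, Arntl and Dbp ranked the hearts in nearly opposite order. The Arntl table values were 3.06, 1.87, 1.42, 2.06 and 2.68 in females and 1.96, 1.75, 1.5, 1.93 and 2.31 in males, replicates 1 to 5 in that order. The Dbp table values were 2.22, 4.29, 7.76, 3.96 and 2.1 in females and 4.23, 6.39, 7.81, 5.52 and 2.26 in males. The 3 hearts with the highest Arntl, female replicates 1 and 5 and male replicate 5, had the 3 lowest Dbp values, and the sexes overlapped for both genes. Pearson's r of the log2 table values was -0.94 (Spearman's rho -0.96, 10 hearts, permutation test, p = 2e-05), and it was -0.93 without the 2 hearts farthest from the median of Arntl. Per2 followed Dbp, with 0.245, 0.421, 0.628, 0.348 and 0.251 in females and 0.519, 0.607, 0.575, 0.427 and 0.244 in males, and its r with Arntl was -0.91 (rho -0.90). The range over the 10 hearts, highest over lowest, was 2.15-fold for Arntl, 3.72-fold for Dbp and 2.57-fold for Per2.

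Of the other genes of the loop at 8 weeks, Npas2 rose and fell with Arntl (r = 0.83, rho 0.70, permutation test, p = 0.00224), although r was 0.56 without the 2 hearts farthest from the median of Arntl. Against Arntl, r was -0.85 for Tef, -0.86 for Nr1d2, -0.74 for Per3 and -0.73 for Nr1d1. The value for Per3 rested on 2 hearts, since r was -0.29 without them. For Per1 no relation to Arntl was detected (r = -0.01, permutation test, p = 0.968), and none for Clock (r = 0.05, p = 0.904 in the same test).

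At 21 weeks the spread of both genes was wider. The Arntl table values were 1.19, 1.66, 1.11, 2.22 and 2.27 in females and 2.48, 1.25, 0.957, 0.957 and 0.342 in males, in the order of the table columns, whose numbers for the males differ from those of the labels. The Dbp table values were 11.2, 8.51, 9.99, 5.43 and 1.97 in females and 1.93, 10.4, 13, 13 and 21.1 in males, a 10.9-fold range. The male with the lowest Arntl had the highest Dbp of that age, and the male with the highest Arntl had the lowest Dbp. The r of Arntl with Dbp was -0.85 (rho -0.96, permutation test, p = 7e-05), with Tef -0.79 (rho -0.87) and with Npas2 0.87 (rho 0.83, p = 0.00119 in the same test). For Per2 it was -0.60 (permutation test, p = 0.0534), for Nr1d1 -0.57, for Per3 -0.31, for Per1 -0.23 and for Nr1d2 -0.18. With the mean of each slide subtracted, r was -0.94 for Dbp, -0.93 for Tef, -0.84 for Nr1d1 and -0.67 for Per2 at 21 weeks, and -0.95, -0.98, -0.52 and -0.94 at 8 weeks.

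In old rats, as at 8 and 21 weeks, r with Arntl was below 0 for all 7 repressors and outputs. At 78 weeks 44.3% of all named rows had such an r. The Arntl table values were 0.263, 1.37, 0.411, 0.128 and 0.359 in hearts labeled female and 0.857, 1.52, 0.317, 0.759 and 0.987 in those labeled male, an 11.9-fold range. Dbp had 16.8, 3.95, 15.4, 20.7 and 12.5 in hearts labeled female and 7.95, 3.72, 14.4, 3.99 and 7.28 in those labeled male. The 5 hearts with the least Arntl were female replicates 1, 3, 4 and 5 and labeled male replicate 3, and those 5 had the highest Dbp. Per2 had 1.29, 0.429, 1.27, 1.75 and 1.03 against 0.672, 0.541, 1.04, 0.734 and 0.477, and the same 5 hearts were the highest. The r with Arntl was -0.95 for Per2, -0.92 for Dbp (rho -0.93, permutation test, p = 0.00042), -0.91 for Per1, -0.78 for Per3, -0.69 for Nr1d1, -0.68 for Nr1d2 and -0.67 for Tef. For Npas2 it was 0.94 (permutation test, p = 6e-05) and for Clock 0.42.

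The order of hearts in old rats went together with the sex shown by the Y-linked genes. With the 2 contradicted arrays left out and the mean of each sex subtracted, over 8 hearts, r with Arntl was 0.83 for Npas2 (permutation test, p = 0.00795), -0.77 for Per2, -0.76 for Per1, -0.70 for Nr1d2, -0.53 for Nr1d1, -0.51 for Dbp (permutation test, p = 0.196), -0.49 for Tef and -0.01 for Per3. This setting was added after the data were seen. At 78 weeks the 75th percentile of the signal of the array also went with Arntl in rank (rho 0.70, permutation test, p = 0.0296, and r = 0.41, p = 0.239 in the same test). Without the 2 arrays farthest from the median of that signal, r was 0.75 for Arntl and -0.73 for Dbp. The same values were 0.65 and -0.40 at 21 weeks and 0.30 and -0.03 at 8 weeks. The part of this signal in the result was tested only by the covariate given further on.

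**Figure D2:**
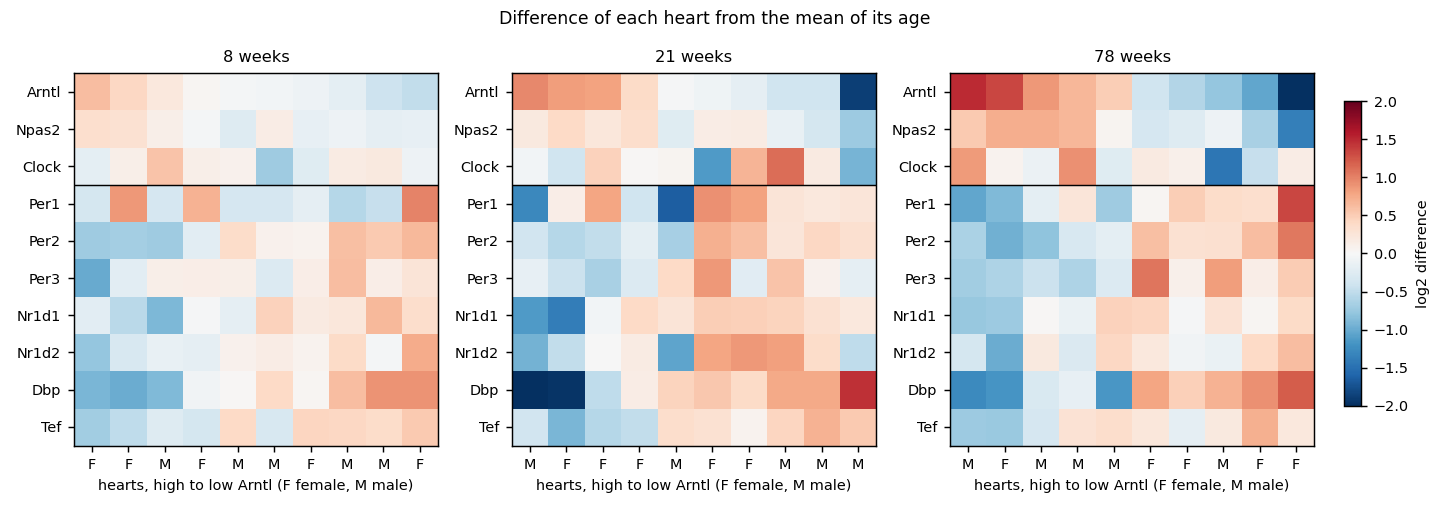
Difference of the log2 table value of each heart from the mean of its age (color scale, log2, from -2 to 2) for 10 clock genes, with the hearts of each age ordered from high to low Arntl and marked F or M by their label. The line separates the activators from the repressors and outputs. Dbp, Per2 and Tef run from blue to red as Arntl runs from red to blue, and Clock shows no such order.

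Over all 21 pairs of an activator with a repressor or output, r was below 0 in 17 pairs in young, 17 in adult and 21 in old rats, with medians of -0.69, -0.23 and -0.68. An unadjusted p under 0.05 in the permutation test was reached by 11, 4 and 12 of them, and the share of all rows in that test was not computed. With adjustment over the 135 relations, Arntl with Dbp, Npas2 with Tef and Arntl with Tef passed at 21 weeks (permutation test, adjusted p from 0.0022 to 0.0215). Npas2 with Dbp did not (adjusted p = 0.0612 in the same test). Among the 21 pairs of repressors and outputs, r was above 0 in 17, 20 and 21 pairs. The 4 such pairs below 0 at 8 weeks all held Per1. The share of all pairs of rows with an r above 0 was not computed. In all, 135 relations between the 10 genes were computed, the pairs share genes and hearts, and the other p-values of correlations given here are not adjusted. For the background, 47.2, 62.8 and 44.3% of all named rows had an r below 0 with Arntl at the 3 ages. The shares were 52.3, 66.9 and 44.4% for Npas2 and 48.1, 44.9 and 50.2% for Clock. The median r of all named rows with Arntl was 0.02, -0.17 and 0.08. The median of -0.23 of the opposed pairs in adult rats lay near the -0.17 of all rows, but it also covers pairs with Npas2 and Clock. Without the pairs of Clock and Per3, both close to background, the medians of the opposed pairs were -0.79, -0.48 and -0.74 at the 3 ages. An r below -0.7 with Arntl was found in 0.766% of rows at 8, 3% at 21 and 6.51% at 78 weeks, and an r above 0.7 in 0.959, 1.94 and 7.05%. These last shares were highest in old rats. Of 18143 rows at 8 weeks, 99.99% had a higher r with Arntl than Dbp did, and at 21 and 78 weeks the shares were 99.9 and 99.8%. For the other repressors and outputs the share ran from 54.6% (Per1) to 99.98% (Per2) at 8 weeks. It ran from 50.9% (Nr1d2) to 99.4% (Tef) at 21 weeks and from 92.1% (Tef) to 99.98% (Per2) at 78 weeks.

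**Figure D3:**
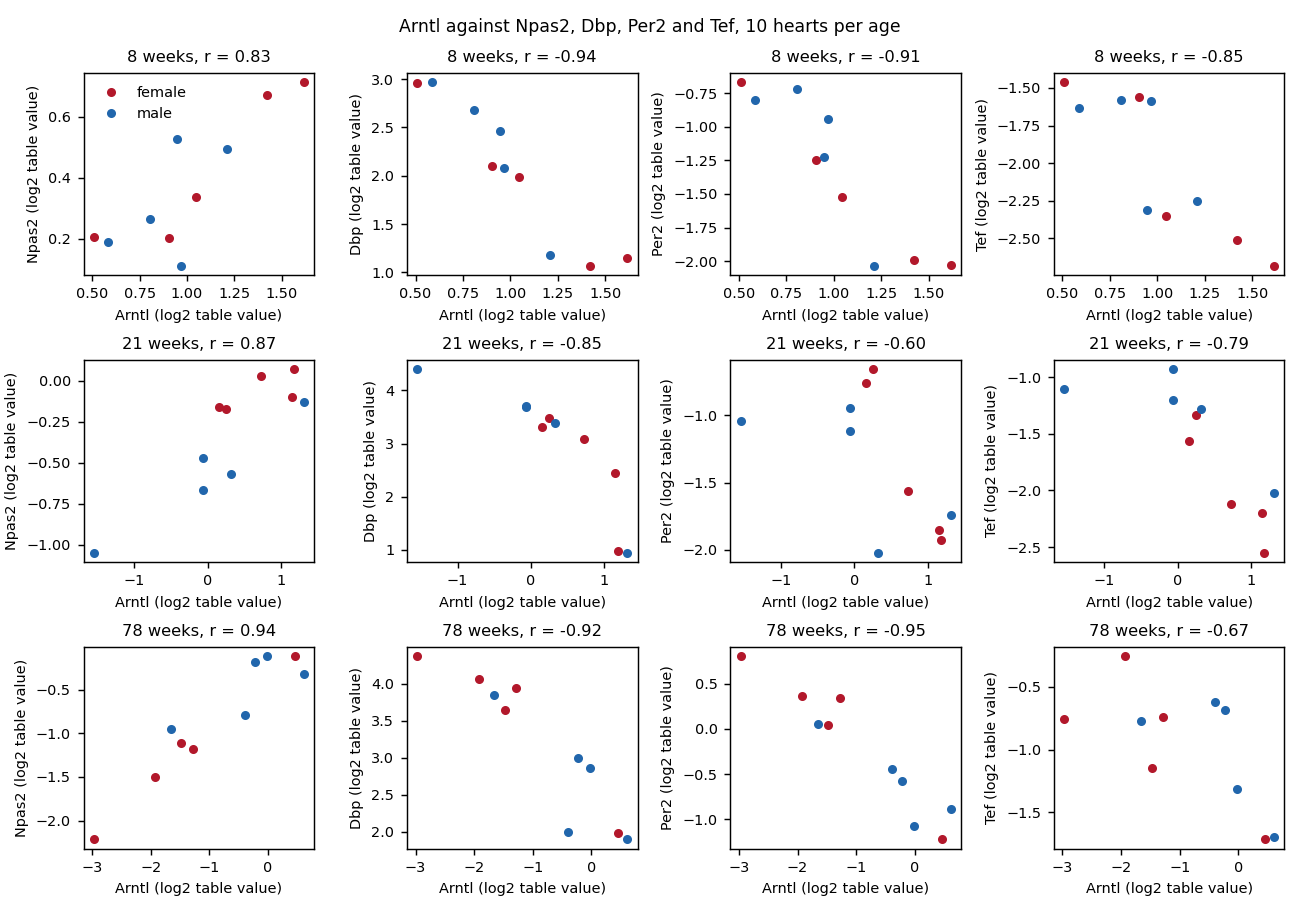
Log2 table value of Arntl (horizontal axis) against those of Npas2, Dbp, Per2 and Tef (vertical axes) in the 10 hearts of each age, females in red and males in blue, with Pearson's r in each title. Npas2 rises with Arntl at all 3 ages (r from 0.83 to 0.94), and Dbp falls with it (r from -0.94 to -0.85).

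A single fit over all 30 hearts asked which rows followed Arntl between hearts of the same labeled sex and age. limma was fitted to the level of every named row on the level of Arntl, with the 6 groups as terms and slide as a random block, and p-values were adjusted over 18603 rows. The adjusted p was under 0.05 for 98 rows, 0.527% of those tested, 48 rising with Arntl (0.258%) and 50 falling (0.269%). Of the 11 rows of the other 9 clock genes, 6 passed, 1 rising and 5 falling. Among rows well above background on all 30 arrays the share was 0.832%.

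Among the activators, Npas2 rose by 0.44 (SE 0.05) on the log2 scale for each log2 unit of Arntl (limma adjusted p = 3.7e-05), while Clock had a slope of 0.29 (SE 0.15, adjusted p = 0.376). Of the 5 repressors, 3 fell as Arntl rose. Per2 had a slope of -0.60 (SE 0.09, limma adjusted p = 8.3e-04), Per1 of -0.61 (SE 0.12, adjusted p = 0.013) and Nr1d1 of -0.48 (SE 0.11, adjusted p = 0.0438). The slopes of Nr1d2, -0.42 (limma adjusted p = 0.101), and Per3, -0.37 (adjusted p = 0.144), had the same sign and did not pass. Both outputs fell, Dbp with a slope of -1.02 (SE 0.13, limma adjusted p = 1.7e-04) and Tef with -0.44 (SE 0.09, adjusted p = 0.0214). The second rows of Npas2 and Per3, which were close to background, had slopes of 0.10 and -0.04.

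The fit without the 2 contradicted arrays called 2 clock rows, Npas2 at 0.38 and Dbp at -1.14 (limma adjusted p = 0.0167 for both), and the slopes of Per2, Tef, Nr1d1 and Per1 were then -0.58, -0.51, -0.59 and -0.64. Each age fitted alone called 0 clock rows and 0 rows in all after adjustment. In those fits over 10 hearts the unadjusted p was under 0.05 for 7, 6 and 8 of the 9 genes at 8, 21 and 78 weeks, against 3.24, 4.15 and 13.2% of all rows. With the 75th percentile of the signal of each array as a covariate, 6 clock rows were called, of 123 rows in all. Leaving out 1 heart at a time gave 3 to 8 clock rows, with 3 when female 78-week replicate 2 was left out, and Nr1d1 lost its call in 19 of 30 such fits. The number of all rows called without the 2 contradicted arrays, or without 1 heart, is not given.

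With Dbp, the output with the widest spread, in place of Arntl in the fit over 30 hearts, 4 clock genes passed after adjustment over all rows, of 8 rows in all (0.043% of 18604). Nr1d1 rose by 0.52 (SE 0.06, limma adjusted p = 1.8e-04), Per2 by 0.47 (SE 0.08, adjusted p = 0.0067) and Tef by 0.39 (SE 0.07, adjusted p = 0.0137) for each log2 unit of Dbp, and Arntl fell by 0.69 (SE 0.09, adjusted p = 3.6e-04). Npas2 (-0.27, limma adjusted p = 0.191), Nr1d2 (0.37, adjusted p = 0.233) and Per1 (0.41, adjusted p = 0.449) did not pass.

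**Figure D4:**
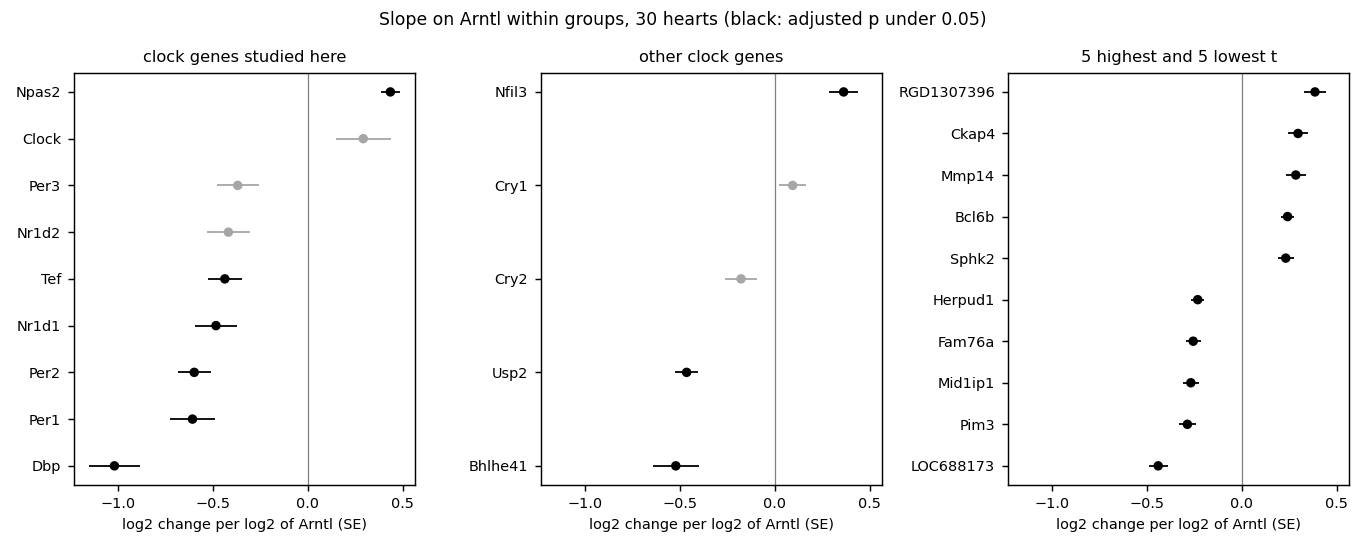
Slope of the level on that of Arntl within groups over 30 hearts (horizontal axis, log2 per log2, bars are SE) for 9 clock genes, 5 other clock genes (Usp2, Bhlhe41, Nfil3, Cry1 and Cry2) and the 10 genes with the highest and lowest moderated t. Points in black passed an adjusted p of 0.05. Dbp lies farthest from 0, at -1.02.

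Other genes tied to the clock were read from lists. Of 16 other clock genes 13 had rows, and 3 of the 13 passed in the fit on Arntl. Usp2, a deubiquitinase whose transcript cycles in many tissues, fell as Arntl rose (slope -0.46, limma adjusted p = 1.7e-04), as did Bhlhe41 (also called Dec2), a repressor that competes for E-boxes (slope -0.52, adjusted p = 0.0484). Nfil3, a repressor at the D-box that is controlled like Arntl through ROR elements, rose with it (slope 0.36, adjusted p = 0.0225). The 13 slopes had a median of -0.05, against -0.01 over all rows, and those of Cry1 and Cry2, the partners of the Per proteins, were 0.09 (limma adjusted p = 0.598) and -0.18 (adjusted p = 0.350). Rows under the names Rorb, Hlf and Ciart were not found.

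None of the 4 genes known to follow the clock in the heart that had a row (Klf15, Kcnip2, Pdk4 and Hsf1) passed, with slopes below 0 for all 4 and a median of -0.11. None of 6 glucocorticoid-induced genes (Fkbp5, Tsc22d3, Sgk1, Zbtb16, Klf9 and Pdk4) and none of 27 cell type marker rows passed either. The lowest adjusted p among the markers was 0.0836, in the fibroblast list, whose 4 slopes were all above 0 with a median of 0.17. Their part in the result was not tested.

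Apart from the clock lists, the 5 rows with the highest moderated t on Arntl among those well above background on all arrays were RGD1307396, Bcl6b, a transcriptional repressor, Ckap4, a membrane protein of the endoplasmic reticulum, Mmp14, a membrane-bound matrix metalloproteinase, and Sphk2, a sphingosine kinase. Their slopes were 0.39, 0.24, 0.30, 0.28 and 0.23 in that order. The 5 lowest were LOC688173, Fam76a, Herpud1, a gene of the endoplasmic reticulum stress response, Pim3, a serine/threonine kinase, and Mid1ip1, a regulator of lipid synthesis, with slopes of -0.44, -0.26, -0.23, -0.29 and -0.27. limma adjusted p-values of these 10 rows lay between 3.7e-05 and 0.0093.

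No clock gene passed the test between females and males at any age after adjustment over all rows, in limma with sex as the only term. The count was 0 of 13 rows at 8, at 21 and at 78 weeks, against 0.105, 0.0383 and 0% of all named rows. An unadjusted p under 0.05 was reached by 1, 2 and 1 of the 13 rows, against 6.29, 16.3 and 6.02% of all rows, and the ordinary linear model also called 0 rows after adjustment. The sexes of a row did not overlap in 0 of the 13 rows at 8 and 0 at 21 weeks, against 1.64 and 4.14% of all rows.

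At 8 weeks Per1 had the largest difference of the 13 rows, with table values of 0.166, 0.187, 0.42, 0.342 and 0.386 in females and 0.167, 0.143, 0.153, 0.168 and 0.168 in males. The 4 highest hearts were all female, and the lowest female lay within the range of the males. Per1 was 1.76-fold higher in females, with mean log2 table values of -1.84 ± 0.62 and -2.65 ± 0.11 (SD, n = 5, limma adjusted p = 0.591, and p = 0.0317 in a two-sided exact permutation test). The other 12 rows at that age had exact permutation p-values from 0.286 to 0.754.

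In adult rats Npas2 was higher in females, with table values of 0.886, 1.02, 0.896, 0.934 and 1.05, compared to 0.913, 0.673, 0.722, 0.629 and 0.483 in males. A single male lay within the range of the females and the other males lay below it. The mean log2 table values were -0.07 ± 0.11 and -0.58 ± 0.33 (SD, n = 5), a 1.43-fold difference (limma adjusted p = 0.261, and p = 0.0238 in a two-sided exact permutation test). Tef was lower in females, with 0.398, 0.231, 0.339, 0.218 and 0.171 against 0.247, 0.411, 0.434, 0.525 and 0.466, a 1.56-fold difference (limma adjusted p = 0.289, and p = 0.0556 in a two-sided exact permutation test). The ranges of Tef overlapped. At this age 16.3% of all rows had an unadjusted p under 0.05.

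In old rats, 0 of the 13 rows passed with the labels as given. Arntl was 2.15-fold higher in hearts labeled male (-1.44 ± 1.24 and -0.34 ± 0.83, mean log2 table value ± SD, n = 5, two-sided exact permutation test, p = 0.143) and Dbp 1.85-fold higher in hearts labeled female (exact p = 0.151, n = 5 each). The second row of Npas2, well above background on 1 of 10 arrays, was the only one whose sexes did not overlap, against 0.938% of all rows.

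Without the 2 contradicted arrays, the remaining 4 females and 4 males of 78 weeks stood apart for several clock genes. The ranges did not overlap for 6 of 13 rows, those of Arntl, Npas2 (both rows), Per2, Per3 and Dbp, against 7.75% of all rows. Arntl was 3.75-fold higher in males (-1.91 ± 0.75 and -0.01 ± 0.44, mean log2 table value ± SD, n = 4) and Npas2 2.21-fold higher in males. Dbp was 2.98-fold higher in females (4.01 ± 0.30 and 2.44 ± 0.57, SD, n = 4), and Per2 2.19-fold higher in females.

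For each of these rows the two-sided exact permutation test gave p = 0.0286, the smallest that 4 against 4 allows, and the limma adjusted p lay between 0.216 and 0.337. Per1 was 1.98-fold higher in females, with overlapping ranges (exact p = 0.0571, n = 4 each). Tef, Nr1d1 and Nr1d2 were higher in females by 0.35, 0.30 and 0.30 on the log2 scale, with exact permutation p-values from 0.229 to 0.343. An unadjusted p under 0.05 was reached by 8 of 13 rows, against 9.28% of all rows, and an adjusted one by 0 of 13, against 0.0169%. Whether the females and males were killed at different times of day is not given, so sex and time of collection cannot be told apart.

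**Figure D5:**
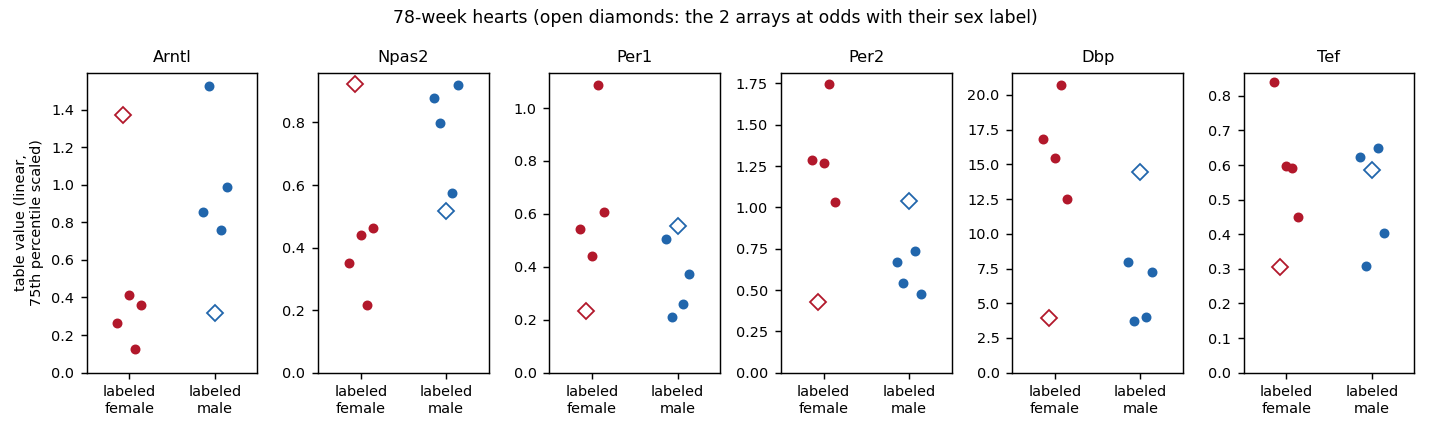
Table values (vertical axis, linear, scaled to the 75th percentile of the array) of 6 clock genes in the 78-week hearts labeled female (red) and male (blue). Open diamonds are the 2 arrays whose Y-linked genes go against the label, and each of them lies nearer the other sex for Arntl, Dbp and Per2.

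Levels were also set side by side across ages, although the ages were processed as separate batches, so that age, batch and time of collection cannot be told apart. Between 8 and 78 weeks Arntl and Npas2 fell, while Per1, Per2 and Tef rose. In the limma fit over 30 hearts with slide as a random block, 6 of 10 clock genes passed, against 13.5% of all rows, 2 of them lower (6.63% of all rows) and 4 higher (6.87%), Per3 near background among the last. Arntl had a mean level of 1.68 at 8 weeks and -0.10 at 78 weeks, and fell by 1.79 (SE 0.34, limma adjusted p = 5.8e-04). Npas2 went from 1.05 to -0.06 and fell by 1.12 (SE 0.17, limma adjusted p = 3.8e-05). Its levels lay between 0.79 and 1.40 at 8 weeks and between -1.40 and 0.66 at 78 weeks. The share of all rows without overlap between these ages was not computed.

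Per1 rose by 1.13 (SE 0.29, limma adjusted p = 0.0082), Per2 by 1.18 (SE 0.25, adjusted p = 0.0018) and Tef by 1.14 (SE 0.21, adjusted p = 5.1e-04). Per3 passed (limma adjusted p = 0.0147), but was well above background on 1 of 10 arrays at 8 weeks, so the size of its difference was not measured. Dbp differed by 1.22 (SE 0.41, limma adjusted p = 0.0501), Nr1d2 by 0.35 and Nr1d1 by 0.17, and these 3 and Clock did not pass. The median of all rows was 0.04.

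A single slide held 2 arrays of 8 weeks and 2 of 78 weeks, each with 1 female and 1 male. On that slide the mean level at 78 weeks minus that at 8 weeks was -2.28 for Arntl, -1.32 for Npas2, 2.51 for Dbp, 2.02 for Per2, 2.02 for Tef and 1.15 for Per1, the signs of the whole fit. With slide as a block for these 2 ages, only Tef passed (limma adjusted p = 0.0446), and those differences rest on 4 arrays. These arrays were also part of the whole fit. The 8-week hearts on the slide, female and male replicates 5, were among those with the highest Arntl and the lowest Dbp of that age.

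Between 8 and 21 weeks 2 of 10 clock genes passed, 1 higher (34.9% of all rows) and 1 lower (13.4%), against 48.3% of all rows in all. The count was 7 with normexp, 5 without the 2 contradicted arrays and 2 to 4 with 1 heart left out. The 48.3% belongs to the main fit, and the shares of all rows in these other settings are not given. Npas2 fell by 0.68 (SE 0.17, limma adjusted p = 0.0025) and Per1 rose by 0.91 (SE 0.29, adjusted p = 0.0112). Arntl differed by -0.65 (limma adjusted p = 0.121) and Dbp by 0.91 (adjusted p = 0.0730). The median of all rows was 0.21.

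Between 21 and 78 weeks 6 of 10 passed, against 38.3% of all rows, 2 lower (26.2%) and 4 higher (12.1%). Arntl fell by 1.15 (SE 0.34, limma adjusted p = 0.0091) and Npas2 by 0.44 (SE 0.17, adjusted p = 0.0425). Per2 rose by 1.20, Tef by 0.75 and Nr1d2 by 0.84, with limma adjusted p-values from 4.7e-04 to 0.0070, where the median of all rows was -0.16. Nr1d2 was well above background on 4 of 10 arrays at 21 weeks, so its size rests partly on values near background. Per3 also passed (limma adjusted p = 0.0422), but it was well above background on 0 of 10 arrays at 21 weeks and its difference changed sign, to -0.0837, with normexp.

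Some cell type markers also differed between ages, as did many of all rows. At 21 compared to 8 weeks, 3 fibroblast markers were lower and 1 higher of 4, 3 of 4 endothelial markers were lower, and 4 cardiomyocyte markers were higher and 1 lower of 5. Of the atrial markers 2 of 4 were higher, as was 1 marker each of leukocytes, red blood cells and adipocytes. Of all rows, 34.9% were higher and 13.4% lower. At 78 compared to 8 weeks, 2 fibroblast markers and 1 endothelial marker were lower and 0 of 5 cardiomyocyte markers passed. In each of the atrial, leukocyte, red blood cell and adipocyte lists 1 marker was higher. Of all rows, 6.87% were higher and 6.63% lower. At 78 compared to 21 weeks, 1 fibroblast marker was higher and 1 lower, 2 endothelial markers were higher, and 1 cardiomyocyte marker was higher and 3 lower. In the atrial and red blood cell lists 1 marker each was lower. Of all rows, 12.1% were higher and 26.2% lower. The summed level of the 3 fibroblast markers with a value on all arrays lay between 7.12 and 7.35 at 8, 6.90 and 7.27 at 21, and 6.46 and 7.33 at 78 weeks (log2). For the 3 such endothelial markers it lay between -0.24 and 0.14, -0.74 and -0.29, and -0.46 and 0.0181 at the same ages, and for the 5 cardiomyocyte markers between 10.58 and 11.24, 11.05 and 12.54, and 10.98 and 11.39. All 4 fibroblast and all 4 endothelial markers were well above background on all 30 arrays. Their part in the differences of the clock genes was not tested.

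Of the 13 other clock genes, 2 rose and 1 fell between 8 and 78 weeks, against 6.87 and 6.63% of all rows, and their median difference was -0.01 against 0.04 over all rows. Bhlhe41 rose by 1.03 (limma adjusted p = 0.0118) and Cry2 by 0.64 (adjusted p = 0.0061), and Cry1 fell by 0.89 (adjusted p = 1.3e-05). Of the 6 glucocorticoid-induced genes 3 rose and 0 fell, beside the same shares of all rows, among them Pdk4, by 0.86 (limma adjusted p = 0.0014).

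Whether the sex difference changed with age was tested by the interaction in the same fit. For the 10 clock genes 0 passed between any 2 ages, against 0.0322% of all rows between 8 and 21 weeks, 0.0322% between 8 and 78 weeks and 0.0215% between 21 and 78 weeks. Npas2 came closest, with a sex difference that moved by -1.25 (SE 0.34) from 21 to 78 weeks (unadjusted p = 9.0e-04 in limma, adjusted p = 0.140). Without the 2 contradicted arrays this value was -1.65 (limma adjusted p = 0.0072), without female 78-week replicate 2 alone -1.53 (adjusted p = 0.0296), and without male 21-week replicate 1 it was -1.36 (adjusted p = 0.0409). Of 18606 rows, 9, 5 and 472 passed in these fits, in that order, against 4 with all hearts.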

How the data were processed

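Total RNA of 30 rat hearts was labeled with Cy3 and hybridized to 1-color Agilent arrays, and spots were read with Agilent Feature Extraction, per the file headers. The deposited scanner files give the processed signal of each spot as an intensity with the background subtracted, and the deposited tables give, for each age, intensities that the authors scaled to each array's 75th percentile. The methods also name averaging of the probes of a gene and removal of genes that were not expressed. Of the rows of the tables of 8, 21 and 78 weeks, 98.9% at each age were matched to probes within 0.002 log2. The 5 male columns of 21 weeks carry other numbers than the labels and were used as a group only, so fits at that age that need the slide or replicate of a male used the scanner files.

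Females were compared with males in the log2 table values of each age with limma 3.58.1 in R 4.3.3, with sex as the only term, and with an exact permutation test of single rows. Correlations used 100000 permutations (scipy 1.17.1), with a smallest p of 1e-05. The fits over 30 hearts used the log2 processed signal relative to each array's 75th percentile, with 6 groups and slide as a random block, whose correlation was 0.009 in the fit on Arntl. p-values were adjusted by Benjamini-Hochberg over all rows with a gene name. Rows of a gene were chosen by the number of arrays well above background, and then by mean level. Genes outside the 10 were named from fixed lists of clock, heart, glucocorticoid and cell type genes, and as the 5 highest and 5 lowest moderated t on Arntl. The 10 genes and these lists were chosen with earlier results of these data known. The values of 1 gene of these lists are not reported here. Y-linked genes were compared with the sex labels.

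Alternatives were other values, background correction, normalization, filters, blocks and left-out hearts. For normexp (offset 50), 20 spots on 3 arrays with a local background over 10 times the array median were left out. Females and males share replicate numbers 1 to 5. At 78 weeks the deviations of hearts with the same number correlated at 0.133 to 0.294, all above 0.1, so the numbers were treated as possible pairs there. At 8 and 21 weeks some were below 0 (-0.145 to 0.244 and -0.151 to 0.461). The labels name no pairs, and hearts with the same number also shared a slide. A pairing of rats was therefore not told apart from the slide. The scripts were tested on simulated data. The arrays are of separate rats. Motifs were searched in RefSeq promoter windows (GRCr8).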

Additional observations from a re-analysis of the deposited data

Results flagged for a closer look

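In 60 sets of 5 hearts, 1 for each clock gene and group, the highest or lowest heart was compared with the rest, and in 4 sets it stood apart by a gap of more than 0.71 of the range of the set. Chance gives about 1 such set in 20. Values are levels, the log2 processed signal relative to each array's 75th percentile.

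Male replicate 1 at 21 weeks was far below the other males of that age for 2 genes. Its level of Nr1d1, a repressor of Arntl, was 0.0593 against 1.46 to 1.64 in the others, and its level of Tef, an output of the clock, was -1.33 against -0.57 to -0.27.

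Female replicate 1 at 21 weeks was the highest female of its age for Per3, at -3.98 against -5.52 to -5.08. Female replicate 1 at 78 weeks was the lowest of its group for Clock, at -4.48 against -3.98 to -3.86. Neither row was well above background on any array of its group.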

How the results depend on the processing

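Sex differences passed for 0 clock rows at each age under all alternatives run, the replicate block and each left-out heart (0 to 0) included. Pairs of opposed genes with r below 0 with 1 heart left out numbered 14 to 19 in 8-week, 12 to 18 in 21-week and 20 to 21 in 78-week hearts. The count of clock rows that followed Arntl was 2 without both contradicted arrays, 0, 0 and 0 with each age on its own (an alternative chosen after seeing the data), and 3 to 8 with 1 heart left out, 3 without female 78-week replicate 2. Nr1d1 lost its call in 19 of 30 such fits. With the replicate block it was 4, since Per1 (adjusted p = 0.0607) and Nr1d1 (adjusted p = 0.0595) no longer passed, and Dbp between 8 and 78 weeks did (adjusted p = 0.0436). The block changed no other call.

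Between 8 and 21 weeks the count of 2 became 7 with normexp, 1 with the filter on dim probes, 5 without both contradicted arrays and 2 to 4 with 1 heart left out, 4 without male 21-week replicate 1 or 3. Between 8 and 78 weeks it was 1 with slide as a block for those ages and 6 to 7 with 1 heart left out, and between 21 and 78 weeks 4 to 6. The interaction passed for 1 gene without both contradicted arrays and 0 to 1 with 1 heart left out. The spread count was 5 with normexp and 9 to 10 with 1 heart left out. The causes were not tested, and the shares of all rows under most of these alternatives are not given. Settings for the interaction and the spread were chosen after seeing the data.

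Some values changed sign. With normexp, female minus male was 0.0197 for Clock at 8 weeks, 0.0871 for Nr1d1 and -0.17 for Nr1d2 at 21 weeks, and -0.0238 for Clock and -0.0033 for Nr1d1 at 78 weeks. With quantile normalization it was 0.21 for Clock and 0.10 for Per3 at 21 weeks, with the first row of a name -0.23 for Arntl at 21 weeks, and without both contradicted arrays -0.36 for Clock at 78 weeks. The slope of Clock was -0.0772 with normexp. Between 8 and 21 weeks normexp gave 0.26 for Clock, 0.0151 for Per2 and 0.19 for Nr1d2, and quantile normalization 0.0074 for Per2 and -0.0771 for Per3. Between 8 and 78 weeks normexp gave 0.11 for Clock, and between 21 and 78 weeks -0.15 for Clock and -0.0837 for Per3. For r with Arntl, Clock had -0.12, -0.52 and -0.19 with normexp at the 3 ages, -0.39 with slide means subtracted at 8 weeks and a rho of -0.16 at 21 weeks. Per1 at 8 weeks had 0.0904 with slide means subtracted, 0.0162 with quantile normalization, 0.39 with the first row and a rho of 0.0788, and Npas2 at 21 weeks had -0.12 with the first row.

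With 1 heart left out, r with Arntl ranged from -0.27 to 0.39 for Clock at 21 weeks, from -0.10 to 0.23 for Clock and from -0.30 to 0.39 for Per1 at 8 weeks. Female minus male ranged for Clock from -0.31 to 0.0216, -0.37 to 0.13 and -0.33 to 0.26, and for Nr1d1 from -0.32 to 0.0614, -0.31 to 0.32 and -0.13 to 0.25, at the 3 ages. It ranged for Nr1d2 from -0.37 to 0.0032 at 8 and -0.0611 to 0.35 at 78 weeks, for Per2 from -0.14 to 0.18 at 21 weeks and for Tef from -0.0606 to 0.31 at 78 weeks. Per2 between 8 and 21 weeks ranged from -0.13 to 0.0808. The signal over background limits Clock, Per3, the second rows and, at 21 weeks, Nr1d2, well above background on 4 of 10 arrays there.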

Other observations

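Of the 13 other clock genes, 4 were higher and 2 lower at 21 than at 8 weeks, against 34.9 and 13.4% of all rows, so the list moved about as often as the rows at large, and age and batch cannot be told apart. Csnk1d rose by 0.32 (limma adjusted p = 0.0022), while Timeless fell by 0.49 (adjusted p = 2.8e-04) and Cry1 by 0.34 (adjusted p = 0.0260).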
